A study of Arabidopsis thaliana with 8 samples.

Results

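The genes described here are those of Arabidopsis thaliana that make chlorophyll, heme and carotenoids: 32 genes of the tetrapyrrole pathway with its regulators, and 8 genes of carotenoid synthesis. The 40 loci were chosen by pathway and not by their values, though with earlier results of these data known, out of a table of 17710 loci. A row in the count table used here exists for 21 of the 40 loci, and the other 19 were not analysed. The study sequenced RNA from shoots of seedlings grown for 7 days on vertical MS agar plates with 16 h of light and 8 h of dark. It covers 4 genotypes with different cotyledon cell shapes, cae2-1, CA1-1, cae2-1 CA1-1 and Col, with 2 libraries each. Col, the Columbia accession, has count columns named for its 2 samples, and only these were used. Their assignment to Col rests on these names, since the other 6 columns follow a scheme that no sample title matches. No genotype was compared with another here, and all values below are levels in Col shoots and differences between its 2 libraries.

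Chlorophyll and heme share one pathway in the plastid. Glutamate bound to its tRNA is turned into 5-aminolevulinic acid (ALA), and ALA molecules are joined and modified into protoporphyrin IX. There the pathway divides: Mg chelatase inserts magnesium towards chlorophyll, and ferrochelatase inserts iron towards heme and the bilin chromophore of phytochrome. Carotenoids, which protect chlorophyll and harvest light, come from the same plastid isoprenoid supply that provides the phytol tail of chlorophyll. In green seedlings the pathway is kept under tight control because free intermediates generate reactive oxygen in light.

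Levels are given as CPM, the count scaled to the size of its library. Where different genes are compared, CPM is divided by the transcript length in kilobases. The listed models summed to 2571129 counts in replicate 1 and 2408685 counts in replicate 2. Leaf genes marked the tissue as labelled: LHCB1.3, PSBO1, PSAD1 and LHCA2, of the photosystems and their antennae, averaged between 7165 and 10688 CPM. RBCS1A had no row. Of 5 root markers 1 was at 0 in both libraries (COBL9), and the highest was CASP1 in replicate 1, at 21.3 CPM, and SCR in replicate 2, at 12.1 CPM. The only seed marker with a row, SESA1, averaged 1.81 CPM. Models that averaged 5 CPM or more were each tested for a difference between the libraries with an exact binomial test (two-sided, Benjamini-Hochberg adjusted over 10701 models). This test compares 2 libraries of one genotype with counting noise, not conditions. It called 55.3% of all tested models at an adjusted p under 0.05, so a call by itself is common in these data. The libraries varied with a biological coefficient of variation of 0.407 over these models. In bulk shoots, fewer cells that make a transcript and less of it per cell cannot be told apart.

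Whether a pathway gene had a row went with the number of transcripts in its annotation. Of the 14 pathway loci with 1 transcript in the RefSeq annotation of assembly TAIR10.1, 13 had a row, and GUN4 was the exception. Of the 26 loci with several transcripts, 8 had a row (30.8%). Over all nuclear protein-coding loci the shares were 66.3% of 16749 loci with 1 transcript and 53.1% of 10695 loci with several. The 19 loci without a row were FLU, HEMB1, HEME1, PPOX1, PPOX2, CHLH, GUN4, CRD1, PORA, PORB, PORC, CAO, FC1, HY1, HY2, PSY, PDS3, ZDS and ABA1. They include all 3 protochlorophyllide oxidoreductases and the phytoene synthase and desaturase genes of carotenoid synthesis. No row is different from a row at 0, and nothing can be said of the levels of these genes.

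**Figure D1:**
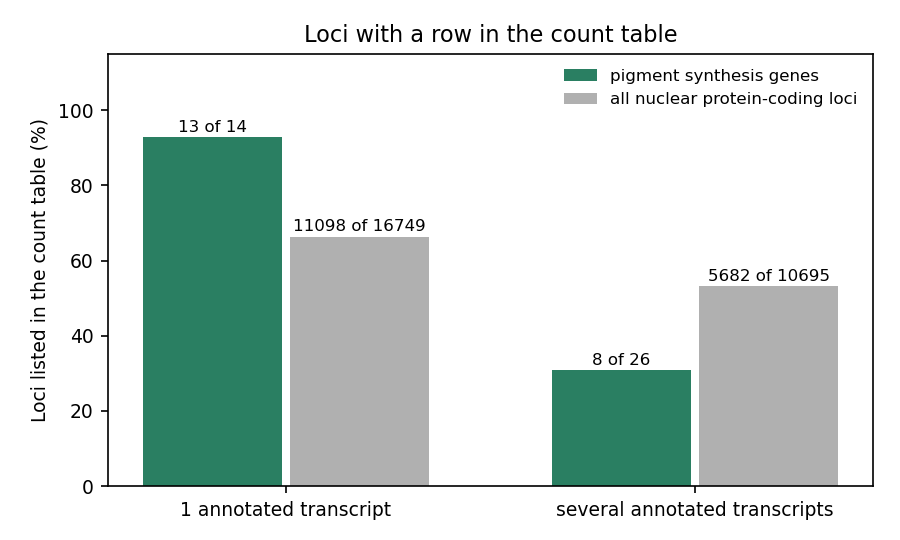
Share of loci with a row in the count table (vertical axis, percent), for loci with 1 or with several transcripts in the RefSeq annotation. Green bars are the pigment synthesis genes (13 of 14 and 8 of 26) and grey bars are all nuclear protein-coding loci (11098 of 16749 and 5682 of 10695).

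The entry to the pathway was well represented in both libraries. HEMA1 and HEMA2 encode glutamyl-tRNA reductase, the step at which ALA supply is set. HEMA1 (AT1G58290) measured 266 CPM in replicate 1, against 354 CPM in replicate 2 (310.3 ± 61.9 CPM, SD, n = 2), and HEMA2 (AT1G09940) had 50.6 and 67.2 CPM. Both reductase genes were higher in replicate 2, each with a log2 ratio (replicate 1 over replicate 2) of −0.41 (by the exact binomial test, adjusted p = 1.63e-07 and 0.0317). Their proportion was therefore the same in both libraries: per kilobase, HEMA1 stood 5.02-fold above HEMA2 in replicate 1 and 5.02-fold above it in replicate 2.

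The next enzyme, glutamate-1-semialdehyde aminomutase, completes ALA and is also encoded by a gene pair, which did not keep its proportion. GSA1 (AT5G63570) gave 612 counts in replicate 1, against 140 in replicate 2, which is 246 and 56.3 CPM (151 ± 134 CPM, SD, n = 2). Its 4.36-fold difference was the widest of all 19 pathway genes tested (log2 ratio 2.11, 95% counting interval 1.86 to 2.40, adjusted p = 2.89e-69 by the exact binomial test). It lay at the 97.8th percentile of the log2 ratios of all tested models. GSA2 (AT3G48730) measured 186 CPM in replicate 1, against 148 CPM in replicate 2, a log2 ratio of 0.32. Per kilobase, GSA2 was at 0.771 of GSA1 in replicate 1 and at 2.69 times GSA1 in replicate 2, so the order of the pair turned round between the libraries. The mean log2 ratio of GSA2 over GSA1, 0.52, was smaller than its SD of 1.27 (n = 2), and these libraries do not order the pair. FLU, a repressor of ALA synthesis, had no row.

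Whether such gene pairs can be told apart depends on how far their sequences differ, so a stretch of each pair is shown. Each is 120 bases of coding sequence from the TAIR10.1 genome, 5′ to 3′, around the longest run that both genes share, and capitals mark the bases at which the pair differs. HEMA1 (chromosome 1, coding bases 336 to 455) and HEMA2 (chromosome 1, 309 to 428) differ at 9 of these bases.
HEMA1: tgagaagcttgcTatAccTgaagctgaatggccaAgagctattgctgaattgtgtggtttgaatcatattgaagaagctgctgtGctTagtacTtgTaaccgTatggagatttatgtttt
HEMA2: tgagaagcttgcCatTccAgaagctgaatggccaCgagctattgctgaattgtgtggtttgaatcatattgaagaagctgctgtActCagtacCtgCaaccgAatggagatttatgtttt
GSA1 (chromosome 5, coding bases 341 to 460) and GSA2 (chromosome 3, 335 to 454) differ at 12 of these bases.
GSA1: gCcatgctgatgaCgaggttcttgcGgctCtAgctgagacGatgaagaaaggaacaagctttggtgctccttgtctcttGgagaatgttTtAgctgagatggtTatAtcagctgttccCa
GSA2: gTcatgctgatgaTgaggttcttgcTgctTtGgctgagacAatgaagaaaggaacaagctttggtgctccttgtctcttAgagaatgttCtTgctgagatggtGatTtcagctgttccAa
CHLI1 (chromosome 4, coding bases 605 to 724) and CHLI2 (chromosome 5, 587 to 706), which encode a Mg chelatase subunit, differ at 14 of these bases.
CHLI1: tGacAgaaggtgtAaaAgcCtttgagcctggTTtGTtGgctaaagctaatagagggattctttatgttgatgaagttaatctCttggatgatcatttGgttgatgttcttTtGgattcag
CHLI2: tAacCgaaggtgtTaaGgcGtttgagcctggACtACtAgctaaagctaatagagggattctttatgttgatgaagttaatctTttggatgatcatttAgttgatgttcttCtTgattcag
Over the aligned bases of the coding sequences, with gaps left out, HEMA1 and HEMA2 were 82.8% identical, GSA1 and GSA2 83.5%, and CHLI1 and CHLI2 81.8%. The longest identical runs were 49, 38 and 44 bases in this order, and none of the 3 pairs shared a stretch of 50 bases. Neither the read length nor the handling of reads shared by several genes is given in the sources used here, and exchange of reads within these runs was not tested.

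**Figure D2:**
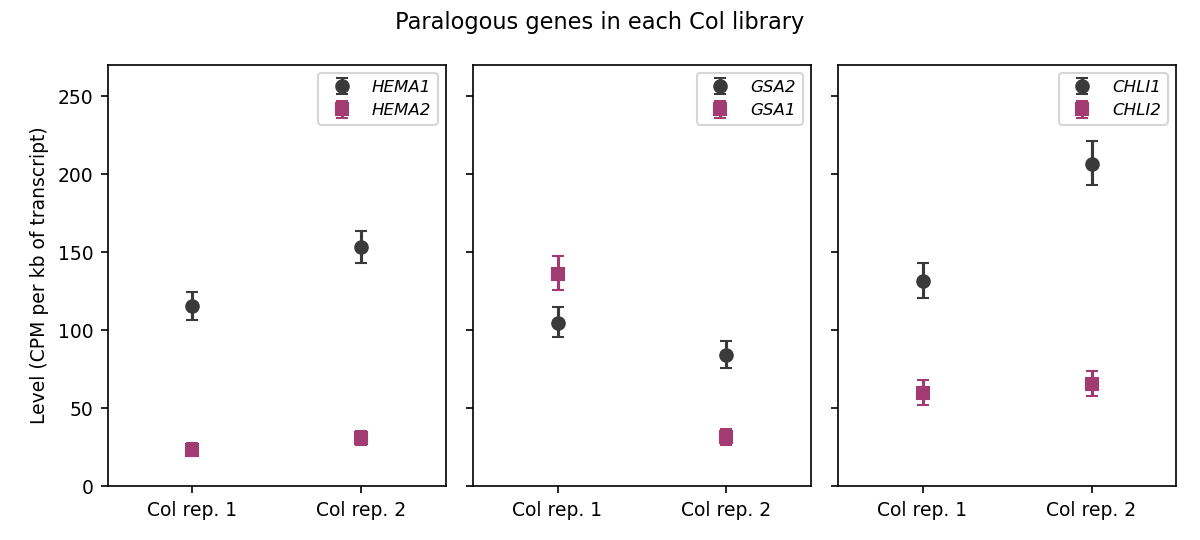
Level of each gene of 3 paralogous pairs (CPM per kilobase of transcript, vertical axis from 0) in Col replicate 1 and replicate 2, with bars for the 95% Poisson interval of the count. HEMA1 lies 5.02-fold above HEMA2 in both libraries, GSA2 lies below GSA1 in replicate 1 and above it in replicate 2, and CHLI1 lies above CHLI2 in both.

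The shared middle steps, from ALA to protoporphyrin IX, included the pathway genes with the highest levels per length. HEMC (AT5G08280), porphobilinogen deaminase, measured 548 CPM in replicate 1, against 399 CPM in replicate 2. At 288 CPM per kilobase it led all 21 listed genes (rank 393 among the 17276 listed models with a transcript length). HEMF1 (AT1G03475), coproporphyrinogen III oxidase (LIN2 in RefSeq), came second at 211 CPM per kilobase. HEMF1 was also the steadiest of the abundant members, with 920 and 909 counts, or 369 and 366 CPM (log2 ratio 0.014, counting interval −0.12 to 0.15, adjusted p = 0.902 by the exact binomial test). HEMD and HEME2, which close the ring and trim its side chains, were several-fold lower. HEMD (AT2G26540), uroporphyrinogen III synthase, had 39.3 and 36.6 CPM and was not called (adjusted p = 0.744 by the exact binomial test). HEME2 (AT2G40490), uroporphyrinogen decarboxylase, measured 61.8 CPM in replicate 1, against 89.3 CPM in replicate 2 and was higher in replicate 2 (log2 ratio −0.53, adjusted p = 0.00119 by the same exact test). Per kilobase, HEMC therefore stood at 288 CPM and HEMD, the next enzyme in the chain, at 26.0 CPM for its listed model, 1 of 3 annotated transcripts. HEMB1, HEME1, PPOX1 and PPOX2 had no row.

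Mg chelatase commits protoporphyrin IX to chlorophyll. Of its subunit genes, those of the I and D subunits, which form the ATP-driven motor, had rows, while the catalytic H subunit (CHLH, GUN5 in RefSeq) and its activator GUN4 had none. CHLI1 (AT4G18480) measured 212 CPM in replicate 1, against 332 CPM in replicate 2 (272 ± 85.4 CPM, SD, n = 2). CHLD (AT1G08520) gave 600 counts in replicate 1, against 1148 in replicate 2, which is 241 and 462 CPM. Both were higher in replicate 2, with log2 ratios of −0.65 for CHLI1 and −0.94 for CHLD (by the exact binomial test, adjusted p = 2.77e-15 and 1.11e-38). The second I subunit gene, CHLI2 (AT5G45930), had 91.1 and 100.2 CPM and was not called (adjusted p = 0.407 by the same exact test). CHLI1 exceeded CHLI2 in both libraries, 2.21-fold per kilobase in replicate 1 and 3.16-fold in replicate 2. CHLI1 and CHLD were closer, with CHLI1 1.44-fold above CHLD per kilobase in replicate 1 and 1.18-fold above it in replicate 2.

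The late chlorophyll genes with a row, 4 of 9, differed between the libraries in the other direction from CHLI1 and CHLD. All 4 were called higher in replicate 1, where 27.6% of all tested models were. Among the log2 ratios of all tested models, CHLG lay at the 73.8th percentile and CHLM at the 76.8th, both near the 75th (0.58). CHLP lay at the 87.4th and DVR at the 96.9th. The 4 genes summed to 529 CPM in replicate 1, against 268 CPM in replicate 2, while the 3 chelatase genes summed to 543 and 894 CPM. DVR (AT5G18660, PCB2 in RefSeq), which reduces the 8-vinyl group of the ring, had 107 and 27.4 CPM (3.92-fold, log2 ratio 1.95, counting interval 1.58 to 2.38, adjusted p = 1.11e-27 by the exact binomial test). DVR and GSA1 were the 2 pathway genes above the 95th percentile of log2 ratios (1.71). CHLP (AT1G74470), the geranylgeranyl reductase that makes the phytol tail, had 209 and 99.0 CPM, a 2.11-fold difference (adjusted p = 3.41e-22 by the exact test). CHLM (AT4G25080), the methyltransferase that acts after the chelatase, had 114 and 74.0 CPM, and CHLG (AT3G51820), the chlorophyll synthase that attaches the tail, had 98.3 and 67.6 CPM. Their log2 ratios were 0.62 and 0.54 (by the exact test, adjusted p = 1.41e-05 and 0.000517). Per kilobase these 4 genes ran between 56.9 CPM for CHLG and 100 CPM for CHLP in replicate 1, and between 17.2 CPM for DVR and 55.7 CPM for CHLM in replicate 2. The 4 photosystem and antenna markers were higher in replicate 1 as well, and summed to 42601 CPM there and to 22852 CPM in replicate 2. The 5 root markers summed to 33.7 and 19.3 CPM, and 1 of the 2 tested was called. This was CASP1, at 21.3 and 4.43 CPM (53 and 11 counts), higher in replicate 1 (adjusted p = 4.84e-07 by the exact binomial test). SCR, at 7.63 and 12.1 CPM, was not called (adjusted p = 0.178 by the same exact test). PHT1;1 at 3.61 and 1.21 CPM, NRT2.1 at 1.20 and 1.61 CPM and COBL9 at 0 in both were not tested. The part of either marker list in the late-step difference was not tested. CRD1, PORA, PORB, PORC and CAO, which complete this part of the pathway, had no row.

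**Figure D3:**
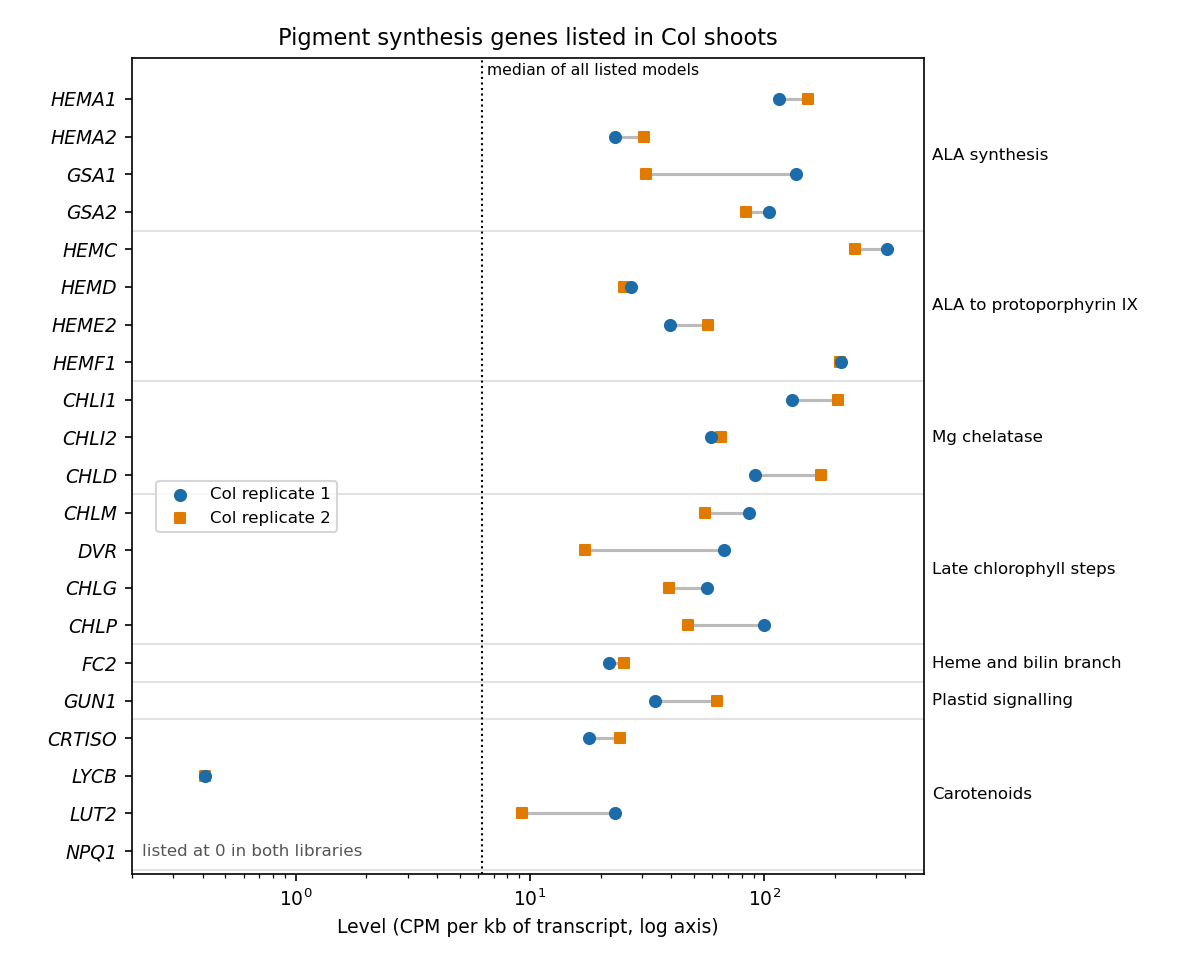
Level of each of the 21 listed genes (CPM per kilobase of transcript, log axis) in Col replicate 1 (blue circles) and replicate 2 (orange squares), grouped by pathway step. The dotted line is the median of all listed models with a transcript length. HEMC, HEMF1 and CHLI1 lie highest, the late chlorophyll genes have their circle to the right of their square, and LYCB and NPQ1 are the only genes below the median.

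Of the heme and bilin branch, 1 of 4 genes had a row. FC2 (AT2G30390), a ferrochelatase gene, measured 43.3 CPM in replicate 1, against 50.3 CPM in replicate 2 (46.8 ± 4.91 CPM, SD, n = 2). It was not called (adjusted p = 0.355 by the exact binomial test). At 23.5 CPM per kilobase, FC2 stood below each listed chelatase and late chlorophyll gene, of which the lowest was DVR at 42.3 CPM per kilobase. In replicate 2 alone this order did not hold for DVR, which had 17.2 CPM per kilobase there, against 25.3 CPM per kilobase for FC2. GUN1 (AT2G31400), a pentatricopeptide repeat protein through which plastids signal to the nucleus, measured 112 CPM in replicate 1, against 207 CPM in replicate 2. It was higher in replicate 2 (log2 ratio −0.88, adjusted p = 5.14e-16 by the exact test). FC1, HY1 and HY2 had no row.

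Of 8 carotenoid genes 4 had a row, and 2 of these reached 5 CPM. The 4 listed genes had the lowest median of the pathway groups, 8.26 CPM per kilobase. The 2 that reached 5 CPM, CRTISO and LUT2, averaged 21.0 and 16.1 CPM per kilobase, against 23.5 CPM per kilobase for FC2. CRTISO (AT1G06820), which isomerizes lycopene precursors, measured 45.4 CPM in replicate 1, against 61.6 CPM in replicate 2 and was higher in replicate 2 (log2 ratio −0.44, adjusted p = 0.0274 by the exact binomial test). LUT2 (AT5G57030), the lycopene epsilon-cyclase of the lutein branch, had 49.0 and 19.7 CPM and was higher in replicate 1 (2.48-fold, log2 ratio 1.29, adjusted p = 1.19e-07 by the exact test). The listed model of LYCB (AT3G10230), the beta-cyclase that competes for lycopene (LYC in RefSeq), had 2 counts in each library, or 0.803 and 0.805 CPM, and was not tested. The listed model of NPQ1 (AT1G08550), violaxanthin de-epoxidase of the xanthophyll cycle, was at 0 in both. No model in either library has a count of 1, so a listed 0 can stand for 1, and it allows up to 4.74 counts (1.90 CPM in replicate 1 and 1.91 CPM in replicate 2, one-sided 95% Poisson limit, counting error only). NPQ1 is listed as isoform 2 of 3 annotated transcripts and LYCB as isoform 1 of 2. How reads common to several models of a locus were divided is not given in the sources used here, so these low counts belong to the listed models. The same limit holds for the levels of GSA1, HEMD, CHLM, FC2, GUN1 and CRTISO, each with 1 listed model and several annotated transcripts. PSY, PDS3, ZDS and ABA1 had no row.

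Over all listed pathway genes, 19 of 21 averaged at least 5 CPM, where 59.7% of all listed models did, and 9 averaged at least 100 CPM, where 11.1% of all did. Their median was 94.2 CPM, against 10.5 CPM for all listed models. Per kilobase the medians were 48.6 CPM for the pathway genes and 6.23 CPM for all listed models with a transcript length. All 17 tetrapyrrole genes with a row lay between 23.5 and 288 CPM per kilobase. No test compared the pathway genes with other genes. The exact binomial test called 15 of the 19 tested pathway genes, 8 higher in replicate 1 and 7 higher in replicate 2 (background 55.3%, 27.6% and 27.7%). The call depends on depth, and pathway genes are more abundant than most models. At a mean of at least 20 CPM, which all 19 reached, the test called 4662 of 6994 models. Of the 19, GSA1, DVR, CHLP and LUT2 also differed at least 2-fold (25.8% of all tested models did, in either direction). All 4 were higher in replicate 1. The log2 ratios of all tested models also reached further towards replicate 1, from −1.33 at the 5th percentile to 1.71 at the 95th. The median log2 ratio was 0.014 for the pathway genes and −0.0034 for all tested models, and the SD was 0.89 and 0.91. The 2 libraries thus summed to similar totals over the listed pathway genes, 3090 CPM in replicate 1 and 3019 CPM in replicate 2, with single genes apart in both directions.

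**Figure D4:**
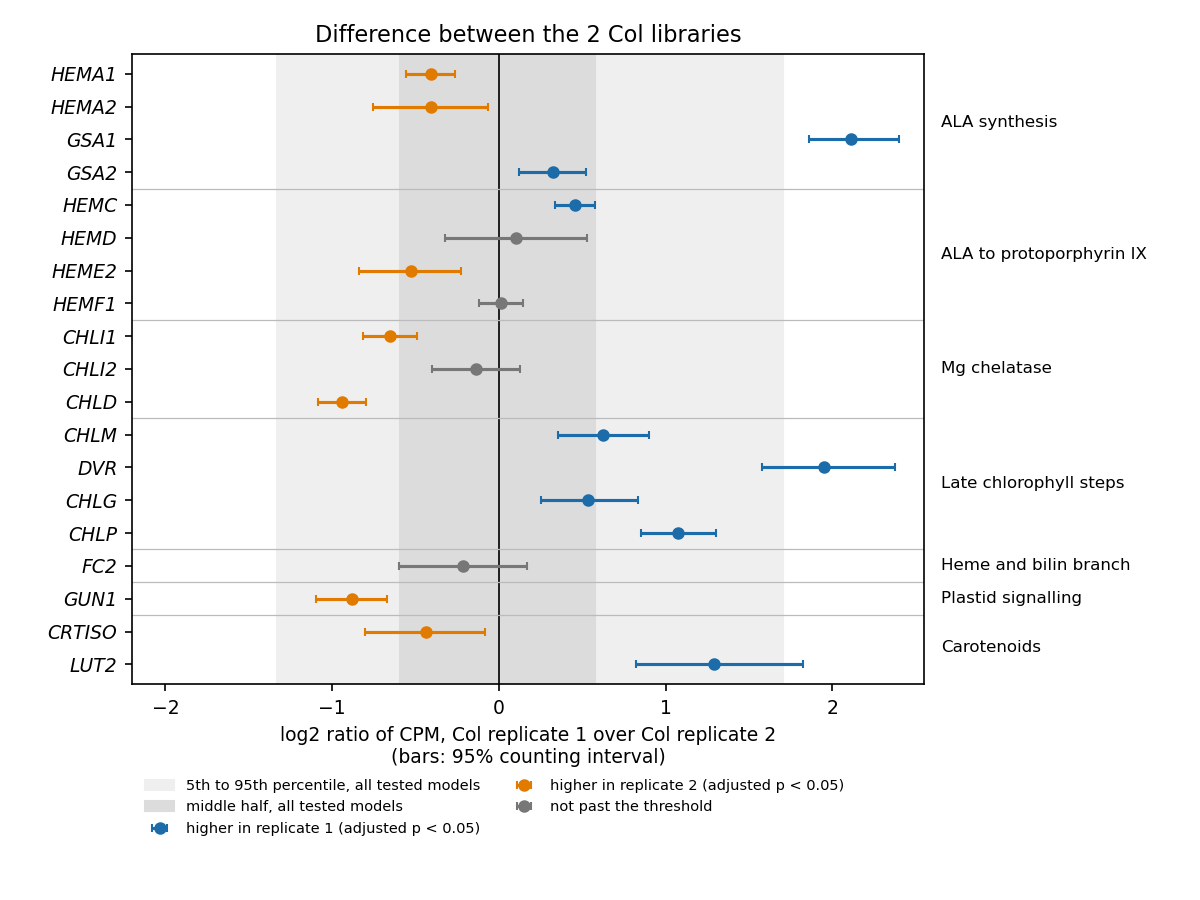
Log2 ratio of CPM, Col replicate 1 over replicate 2 (horizontal axis), for the 19 tested pathway genes, with 95% counting intervals as bars. Grey bands give the 5th to 95th percentile (−1.33 to 1.71) and the middle 50% of all 10701 tested models. The 4 late chlorophyll genes lie right of 0, CHLI1 and CHLD lie left of it, and GSA1 and DVR lie beyond the 95th percentile.

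Among 49 other genes tied to these pigments, 34 had a row, 28 of these averaged at least 5 CPM, and the test called 9 higher in replicate 1 and 8 higher in replicate 2. Over all tested models 27.6% and 27.7% were called in these directions and 55.3% in either, so these 17 calls among 28 genes, and the group counts that follow, are near the background or rest on few genes. YCF54, a partner of the cyclase CRD1 (EMB3143 in RefSeq), was the most abundant at 306 CPM in replicate 1 and 451 CPM in replicate 2. LIL3.2, which holds CHLP at the thylakoid, had 319 and 263 CPM. Both were called, YCF54 higher in replicate 2 (log2 ratio −0.56) and LIL3.2 higher in replicate 1 (0.28). HEMB2, the second copy of ALA dehydratase, was at 0 in both libraries. In the chlorophyll cycle and breakdown group, 8 of 10 genes had a row and 6 of 7 tested were called (background 55.3%), 4 of them higher in replicate 1 (background 27.6%). CLH1, a chlorophyllase, had 320 and 217 CPM, and HCAR, which turns hydroxymethyl chlorophyll into chlorophyll a, had 227 and 149 CPM, with log2 ratios of 0.56 and 0.60. Of 14 other carotenoid genes 10 had a row and 4 of 8 tested were called (background 55.3%). CCD1, which cleaves carotenoids into volatile compounds, led them with 231 and 403 CPM (log2 ratio −0.80), and the hydroxylase gene LUT5 (CYP97A3 in RefSeq) had 98.7 and 72.4 CPM (0.44).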

How the data were processed

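Shoot RNA was extracted with a TRIzol-based protocol and made into Illumina libraries, per the labels' protocols. The authors deposited raw counts per gene model, per the file headers. The submitters' processing notes name TAIR10 as the genome build. The sources used here do not give the aligner, counting tool, strand setting or any filter on models. Titles matched the 2 Col columns, and the other 6 columns were not used.

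Libraries were scaled by the trimmed mean of M values (edgeR 4.0.16 in R 4.3.3) over 17921 models, and CPM are counts per scaled library size. A locus with several models is represented by the highest one. Log2 ratios had 0.5 CPM added. Differences between the libraries were tested with the exact binomial test (scipy 1.17.1) at a mean of 5 CPM or more and a threshold of 0.05 on the adjusted p. The step was tested on simulated data with counting noise only, so that trial does not cover the wider spread between these libraries. Intervals cover counting error only, since the sources name no molecular identifiers and reads need not be separate molecules. The replicates are called biological, with no word on separate plates or days. Names, lengths and sequences came from RefSeq, assembly TAIR10.1, and 17825 models matched by locus. The pathway genes and lists were chosen with earlier results of these data known. All pathway genes are named, and of the other genes the 2 most abundant of each group and those at 0. Other settings covered scaling, filters, models, lengths and single replicates.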

Additional observations from a re-analysis of the deposited data

How the results depend on the processing

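The calls were recomputed in 6 other ways: RLE factors (relative log expression), no scaling, organelle models left out, no filter on level, a mean of at least 20 CPM, and counts summed over the models of a locus. Each called the same numbers of pathway genes, 15 in all, 8 higher in replicate 1 and 7 higher in replicate 2. Single ratios kept their direction and their side of the threshold in each setting with 1 exception, HEMF1. Its log2 ratio of 0.014 became −0.077 with no scaling and was not called in either. All 19 tested genes averaged at least 20 CPM, and each had 1 listed model. The filter settings and the sum over models therefore left their counts as they were and could change only the adjustment of p. With coding length in place of transcript length, the median level of the pathway genes was 71.3 CPM per kilobase, against 48.6 CPM, and the log2 ratio of HEMA1 over HEMA2 was 2.35, against 2.32. The log2 ratio of CHLI1 over CHLD was 0.51, against 0.39, a shift smaller than its SD of 0.20 between the libraries. These shifts follow from the coding lengths, which are shorter, and by a different share in each gene. Without replicate 1 and without replicate 2, GSA1 stood at 56.3 and 246 CPM, DVR at 27.4 and 107 CPM, CHLP at 99.0 and 209 CPM and LUT2 at 19.7 and 49.0 CPM, so these 4 levels depend on which library is taken. Of the 16 gene pairs considered, 5 had both genes listed, and a ratio of LUT2 to LYCB is not given because LYCB had 2 counts in each library. No paired analysis was possible because only Col has columns named for its samples. The genotype contrasts were therefore not run. Depth limits the calls of HEMD and FC2, with 91 to 125 counts in each library, more than those of the abundant genes.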

Other observations

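Of 8 genes that supply isoprenoid precursors to both chlorophyll and carotenoids, 5 had a row. Their median was 88.7 CPM per kilobase in replicate 1 and 98.2 CPM per kilobase in replicate 2. The 17 tetrapyrrole genes with a row had medians of 86.0 and 57.4 CPM per kilobase, and no test compared the groups. DXS, the first enzyme of the plastid isoprenoid pathway (CLA1 in RefSeq), measured 262 CPM in replicate 1, against 431 CPM in replicate 2 and was called higher in replicate 2 (log2 ratio −0.71, adjusted p = 6.36e-23 by the exact binomial test). HDR, the last enzyme, had 273 and 240.2 CPM (log2 ratio 0.18, adjusted p = 0.0458 by the same exact test). DXR, MDS and HDS had no row.

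Of 5 regulators of pigment genes 2 had a row. GLK2, a transcription factor of chloroplast genes, measured 161 CPM in replicate 1, against 157 CPM in replicate 2 and was not called (adjusted p = 0.84 by the exact binomial test). HY5, a transcription factor of light responses, had 11.6 and 10.5 CPM and was not called either (adjusted p = 0.85 by the same exact test). GLK1, PIF1 and PIF3 had no row.

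The 250 bases before the annotated gene start (TAIR10.1) were searched on both strands for 2 motifs. The G-box CACGTG, bound by HY5 and PIF factors among others, was found before 5 of the 40 pathway genes (12.5%), against 6.49% of 27443 protein-coding genes. The 5 were HEMD, CRD1, CAO, FC2 and HY2, of which HEMD and FC2 had a row. The motif CCAATC, searched on both strands as well, was found before 4 of the 40 (10.0%), against 10.2% of all, and the 2 motifs can overlap by 1 letter. These are matches of letters only, described without a test.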
